A study of Mus musculus with 24 samples.

Results

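Mast cell transcripts were followed in mouse skin at embryonic day 18.5 (E18.5) through 8 genes: Cma1, Mcpt4, Tpsb2, Cpa3, Hdc, Ms4a2, Fcer1a and Gata2. They were chosen by name as genes of skin mast cells. All 8 were found among the 54087 gene symbols of the read count table, and all 8 passed the filter on low counts that left 17094 genes to test. Dorsal skin came from embryos of 3 genotypes on a C57BL/6 background: WT with both copies of the desmoglein 1 cluster, HET with 1 copy deleted and KO with both deleted. The deletion took out the tandem genes Dsg1c, Dsg1a and Dsg1b, came from 1 founder made with CRISPR/Cas9 and was then backcrossed, and it was carried in the germ line, so mast cells and keratinocytes of an animal had the same genotype. No agent was given to any group, and embryos of both sexes were used. There were 8 libraries per genotype, 24 in all, of whole skin.

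Mast cells are tissue-resident immune cells that derive from blood cell progenitors and settle in the dermis before birth. Their granules hold proteases, histamine and heparin, and these are released when antigen cross-links IgE on the high-affinity receptor or when other surface receptors are engaged. In mouse skin the mature population is of the connective tissue type, which stores chymases, tryptases and carboxypeptidase A3, in contrast to the mucosal type of the gut, which is known for Mcpt1 and Mcpt2. The questions here were at what level fetal skin held these transcripts, whether they moved together from sample to sample, and whether their level differed with the dose of Dsg1.

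Libraries that carry the same number in their titles and the same genotype were summed, which gave 5 columns per genotype and 15 in all, named here by genotype and title number (WT 34, for example). Totals per column lay between 15.3 M and 33.7 M counts (M, mega), and those of single libraries between 8.98 M and 20.96 M. The 2 libraries of number 35 (WT) went against each other: Xist, the RNA of the inactive X chromosome, was near 0 in one (0.264 CPM) and high in the other (567 CPM), so they do not look like one animal, and results are also given without this number. The meaning of the number is not given, so p-values measure the spread between these columns. The targeted Dsg1 genes had a summed level (CPM, counts scaled to a common library size; mean ± SD, n = 5 columns each) of 806 ± 112 in WT, 422 ± 51.5 in HET and 0.548 ± 0.343 in KO, as the labels say.

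Cma1, Tpsb2, Cpa3 and Hdc ranked among the most abundant transcripts of the skin. Of the 17094 genes tested, ordered by mean CPM over the 15 columns, Cpa3 ranked 120, Cma1 266, Hdc 368, Tpsb2 432 and Mcpt4 904. Gata2 ranked 6799, and the IgE receptor genes Ms4a2 and Fcer1a ranked 11041 and 14450. To compare different genes, levels were also put on the scale of CPM per kilobase of exon. The length was that of all annotated exons of a gene merged, 1108 bases for Mcpt4 and 6389 for Hdc, and not that of the transcripts in use. On this scale WT skin held 462 ± 102 for Cpa3, 351 ± 57.9 for Cma1, 188 ± 67.7 for Mcpt4 and 180 ± 10.03 for Tpsb2. The level was 51.5 ± 8.58 CPM per kilobase for Hdc, 5.95 ± 0.588 for Gata2, 3.30 ± 1.20 for Ms4a2 and 1.10 ± 0.242 for Fcer1a (WT, n = 5 each). Cpa3 lay above Cma1, and Cma1 above Tpsb2, in 15 of 15 columns. Tpsb2 lay above Mcpt4 in 10 of 15 columns only, so these neighbours could not be ordered on this scale. Below them the order Mcpt4, Hdc, Gata2, Ms4a2 and Fcer1a also held on this scale in 15 of 15 columns. The ranges over all columns were apart only between Mcpt4 and Hdc and between Hdc and Gata2. The place of Hdc below Mcpt4 rests on the exon length: in CPM its mean was 298, against 175 for Mcpt4. The near tie of Tpsb2 and Mcpt4 rests on it too: in CPM the mean of Tpsb2 was 272, and Tpsb2 lay above Mcpt4 in every column.

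The protease genes were of the connective tissue type. Mcpt1 and Mcpt2, the chymases known from mucosal mast cells, had 7 and 91 counts over all 15 columns, and Mcpt9, known from the uterus, had 1 count. These genes were named after their values were seen. Mcpt1 had no count in 9 of 15 columns, which allows up to 3 counts in each of them. Tpsb2 stood far above Tpsab1, the gene of the other soluble tryptase, which had 20 to 158 counts per column and 1.31 ± 0.721 CPM per kilobase in WT. Reads shared between close copies could blur these values. Of the 50-base stretches in the annotated transcripts of Mcpt4, 5.48% also occur in another gene, Cma2 or Mcpt9, and 5.38% of those of Cma1 occur in the gene model Gm48934. For Tpsb2, Tpsab1, Cpa3, Fcer1a and Gata2 the share was 0%. The positions below are those of GENCODE vM21 on GRCm38.

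Cma1 encodes a chymase of the granules (chromosome 14, 55941451 to 55944675, minus strand). In WT it had 465, 382, 348, 299.9 and 417 CPM in numbers 34, 35, 38, 41 and 42. HET numbers 37, 40, 44, 45 and 46 had 369, 243, 433, 343 and 491 CPM of Cma1. KO numbers 30, 36, 43, 47 and 48 had 403, 281, 379.9, 184 and 357 CPM. The lowest value was in KO 47 and the highest in HET 46, with the 3 genotypes overlapping.

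Mcpt4 encodes the main chymotrypsin-like protease of connective tissue mast cells and lies near Cma1 (chromosome 14, 56059629 to 56062313, minus strand). Its level in WT was 289.9, 248, 157, 106 and 242 CPM, in the same order of title numbers as above. In HET it was 232, 76.7, 183, 168 and 224 CPM, and in KO it was 161, 140.2, 133, 80.6 and 187 CPM. Mcpt4 had the widest spread of the 4 protease genes within WT, with a coefficient of variation of 36.0%. The 3 highest values were in WT 34, WT 35 and WT 42, yet WT 41 lay below 4 of the 5 KO columns.

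Tpsb2 encodes the tryptase that mast cells release as a tetramer with heparin (chromosome 17, 25366305 to 25369098, plus strand). WT columns had 297, 293, 293, 258 and 292 CPM, a coefficient of variation of 5.58%. HET columns spread over 287, 216, 348, 247 and 368 CPM, and KO columns over 249, 278, 302, 141 and 217 CPM. The WT values were close together and lay inside the range of HET, and the highest KO value exceeded all WT values.

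Cpa3 encodes carboxypeptidase A3, which is stored in complex with the chymases and trims peptides from their C-terminal end (chromosome 3, 20215620 to 20242181, minus strand). Its values in WT were 802.5, 803, 587, 486 and 826 CPM. They were 791, 409, 809.8, 818 and 849 CPM in HET and 749.5, 489.8, 658, 295 and 713 CPM in KO. In HET 4 of the 5 columns lay close together, and HET 40 was at about the level of WT 41 and KO 36.

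Hdc encodes histidine decarboxylase, the enzyme that makes histamine (chromosome 2, 126593667 to 126619299, minus strand). WT columns had 298, 307, 272, 361 and 408 CPM of Hdc, HET columns 291, 219.5, 355, 279 and 407 CPM, and KO columns 314, 215, 336, 127 and 286 CPM. WT 41, which was lowest in WT for the proteases and for Ms4a2, was second highest in WT for Hdc. KO 47 was again the lowest column.

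The IgE receptor genes were low. Ms4a2 encodes its beta chain, which amplifies the signal (chromosome 19, 11615523 to 11623719, minus strand), and its CPM was 13.1, 9.56, 7.65, 4.51 and 11.6 in WT, 9.60, 6.62, 8.09, 6.38 and 12.4 in HET and 10.3, 4.13, 4.98, 3.96 and 12.4 in KO. Fcer1a encodes the alpha chain that binds IgE (chromosome 1, 173221284 to 173227214, minus strand), and rested on 8 to 67 counts per column. Its CPM was 0.728, 1.39, 1.17, 1.16 and 1.06 in WT, 0.651, 0.595, 1.69, 0.521 and 3.21 in HET and 0.631, 1.40, 1.19, 0.411 and 0.809 in KO. Ms4a2 in KO fell into 3 low and 2 high columns, and HET 46 alone set the high HET mean of Fcer1a.

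Gata2 encodes a zinc finger transcription factor that mast cells need and that other blood lineages and endothelium also express (chromosome 6, 88193891 to 88207032, plus strand). WT columns had 32.1, 32.9, 28.3, 36.8 and 30.5 CPM, HET columns 35.2, 27.2, 40.7, 25.6 and 43.0 CPM, and KO columns 31.2, 24.9, 34.3, 17.6 and 26.2 CPM. The genotypes overlapped, with KO 47 lowest and HET 46 highest. The plot of CPM by genotype shows the same overlap for each of the 8 genes.

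**Figure D1:**
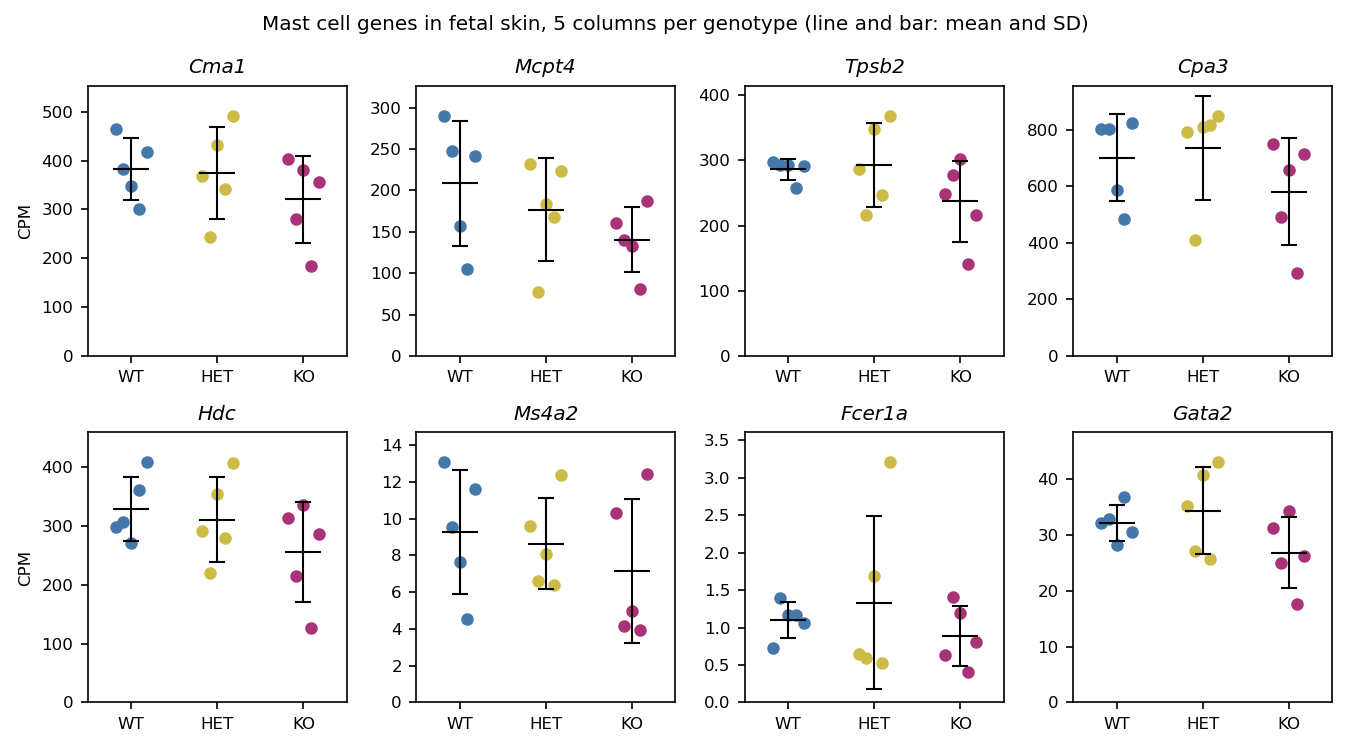
CPM (linear axes from 0) of each mast cell gene in WT, HET and KO skin; each point is 1 of 5 columns per genotype, and the black line and bar are the mean and SD. The ranges of the 3 genotypes overlap for each of the 8 genes.

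GATA factors bind the letters AGATAA and TGATAA, among others, and the promoters of the mast cell genes were therefore read for them. RefSeq promoter windows (GRCm38.p6, 250 bases before to 50 after the start) were at hand for 7 of the 8 genes, all but Tpsb2. AGATAA or TGATAA, on either strand, occurred in 4 of the 7 genes, against 21% of the 27025 genes with a window and 18.6% of the 32851 windows of that length. CANNTG, the core letters of sites for basic helix-loop-helix factors such as MITF, occurred in 5 of the 7 genes, against 75% of genes. A match is a description of the letters and not a site. The windows around the GATA letters are printed with 30 bases each, 5′ to 3′ in the direction of the gene, with the match in capitals (TTATCT is AGATAA on the opposite strand).
Mcpt4, chr14:56062396-56062425, minus strand: catgagaatttcTGATAAggaaagtagagc
Cpa3, chr3:20242210-20242239, minus strand: agctgttcgtcgAGATAAaagctgaggtat
Ms4a2, chr19:11623926-11623955, minus strand: ttctgctctcttTTATCTtctcatttccta
Ms4a2, chr19:11623739-11623768, minus strand: cagcctggagacTTATCTgacaagtaggtt
Ms4a2, chr19:11623713-11623742, minus strand: ggttccgcatgaAGATAAtcattggtattc
Fcer1a, chr1:173227304-173227333, minus strand: acaaccctattaTTATCTctggagaaagcc
The match began 103 bases before the start in Mcpt4, 46 in Cpa3, 92 in Fcer1a and 224, 37 and 11 in Ms4a2. The windows of Cma1, Hdc and Gata2 held neither AGATAA nor TGATAA.

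In the comparison of KO with WT, each of the 8 genes had a lower mean in KO, and none passed the test. To be called, a gene had to have an adjusted p of at most 0.1 and a log2 fold change of at least 1 in size (edgeR quasi-likelihood test, Benjamini-Hochberg adjusted over 17094 genes). Of the mast cell genes 0 of 8 were called, where 0.322% of all genes tested were called. Without adjustment 0 of 8 had a p below 0.05, where 19.3% of all genes did, and 0 of 8 had CPM ranges of WT and KO that were apart, where 3.37% of all genes did. The log2 fold changes ran from -0.57 to -0.25 with a median of -0.29, beside a median of -0.009 over all genes tested, of which 48.6% had a positive value. DESeq2 also called 0 of the 8.

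Mcpt4 had the most negative log2 fold change, -0.57 with a standard error (SE) of 0.32 (adjusted p = 0.329, edgeR; 95% interval -1.25 to 0.11). The other chymase gene, Cma1, had -0.25 (SE 0.21, adjusted p = 0.506, edgeR), Tpsb2 had -0.27 (SE 0.18, adjusted p = 0.392) and Cpa3 had -0.27 (SE 0.25, adjusted p = 0.556). For Hdc the value was -0.36 (SE 0.22, adjusted p = 0.374), for Ms4a2 -0.37 (SE 0.35, adjusted p = 0.568), for Fcer1a -0.31 (SE 0.46, adjusted p = 0.724) and for Gata2 -0.26 (SE 0.17, adjusted p = 0.402), all by edgeR. The narrowest intervals were those of Gata2, -0.61 to 0.10, and Tpsb2, -0.64 to 0.10, so a ratio of KO to WT below 0.640 lay outside the interval of Tpsb2. Those of Mcpt4, Ms4a2 and Fcer1a reached below -1, the size a call requires.

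The summed CPM of the 8 genes was 1950 ± 307 in WT, 1936 ± 454 in HET and 1570 ± 444 in KO (mean ± SD, n = 5 each). KO was thus at 80.5% and HET at 99.3% of the WT mean. The sums ranged from 1553 to 2227 in WT, from 1198 to 2398 in HET and from 849.8 to 1918 in KO, so the ranges overlapped. The KO mean lay inside the WT range, near its lower end, and the WT mean lay just above the highest KO column. In RNA from whole skin, fewer mast cells and less of these transcripts per mast cell cannot be told apart. One column, KO 47, weighed on the comparison: without it the median log2 fold change of the 8 genes KO vs WT was -0.14, and the genes ran from -0.42 to -0.10. Without WT 35 the median was -0.26, and with its 2 libraries as separate samples it was -0.33.

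Between HET and WT skin none of the 8 genes passed the test. Of them 4 had a higher and 4 a lower mean in HET, the median log2 fold change was 0.00, and the adjusted p was 0.9998 for each (edgeR). Among all genes tested 0.00% were called in this comparison, 1.58% had an unadjusted p below 0.05 and 0.374% had ranges that were apart, and the mast cell genes counted 0 of 8 in each respect, with 0 of 8 called by DESeq2. The 95% interval of the log2 fold change was -0.47 to 0.41 for Cma1, -0.34 to 0.40 for Tpsb2 and -0.26 to 0.45 for Gata2. It was widest for Fcer1a, at -0.69 to 1.21. The split of the 8 genes rested on single columns: without HET 46 the median was -0.17 with 6 of 8 lower in HET, and without HET 40 it was 0.11 with 2 of 8 lower.

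KO skin was next compared with HET skin, with the same KO columns as above. Again the 8 genes had a lower mean in KO, with a median log2 fold change of -0.32 beside -0.004 over all genes tested. None of the 8 was called by edgeR or DESeq2 (0.181% of all genes were, by edgeR), none had an unadjusted p below 0.05 (16.0% of all genes had) and none had ranges that were apart (2.25% of all genes had). The smallest adjusted p was that of Gata2, 0.315, with a log2 fold change of -0.35 (SE 0.17, 95% interval -0.71 to 0.00, edgeR). Tpsb2 followed with -0.31 (SE 0.18, adjusted p = 0.397, edgeR). The median was -0.17 without KO 47 and -0.18 without HET 46.

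**Figure D2:**
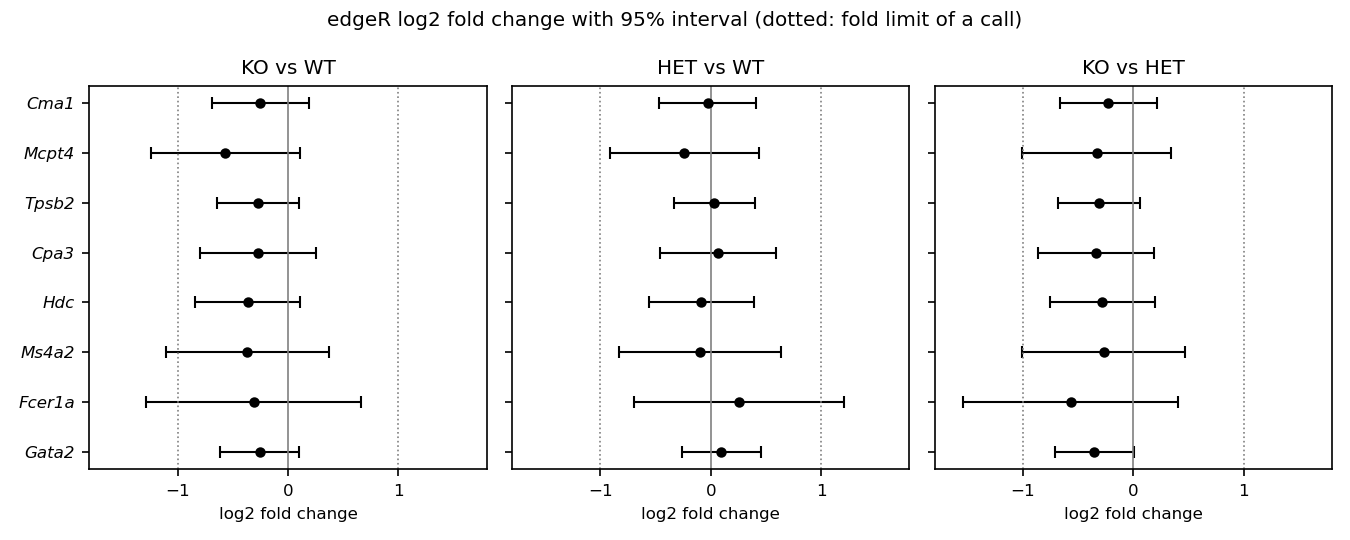
Log2 fold change of each mast cell gene KO vs WT, HET vs WT and KO vs HET from edgeR (x axis), with points for the estimate and bars for the 95% interval; dotted lines mark the fold limit of a call and the solid line no difference. Each of the 8 genes lies left of the solid line in both KO comparisons, and each interval reaches or crosses it.

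The spread between columns differed from gene to gene. Within WT the coefficient of variation of CPM ran from 5.58% for Tpsb2 to 36.2% for Ms4a2. Over all 15 columns the highest level was 2.45 times the lowest for Gata2, 2.61 times for Tpsb2, 2.68 times for Cma1, 2.88 times for Cpa3, 3.20 times for Hdc, 3.30 times for Ms4a2, 3.78 times for Mcpt4 and 7.80 times for Fcer1a. The biological coefficient of variation that edgeR fitted, which leaves out counting error, was 47.2% for Fcer1a, 37.7% for Ms4a2, 34.7% for Mcpt4 and 27.9% for Cpa3. It was 25.6% for Hdc, 23.96% for Cma1, 20.7% for Tpsb2 and 19.4% for Gata2, beside a median of 16.5% over all genes tested. All 8 thus varied more than the median gene.

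The genes moved together in this variation. KO 47 had the lowest value of all 15 columns for 7 of the 8 genes, all but Mcpt4, for which HET 40 was lower. HET 46 had the highest value for 5 of the 8, Cma1, Tpsb2, Cpa3, Fcer1a and Gata2. Over the 15 columns the 28 pairs of genes had a Pearson r of log2(CPM + 1) from 0.19 to 0.94 with a median of 0.74, and 28 of 28 were positive. With the values centred within each genotype the median was 0.72. Spearman rho of the same pairs ran from 0.10 to 0.81 and was lower than r in most of them, for example 0.44 against 0.67 for Cpa3 and Gata2. Cma1 and Cpa3, on different chromosomes, were the closest pair (r = 0.94), followed by Mcpt4 and Cpa3 (0.89), Hdc and Gata2 (0.87) and Cma1 and Hdc (0.87). The loosest pair was Ms4a2 with Fcer1a (0.19), the subunits of one receptor and the genes of lowest count. Columns share the total that CPM is scaled to, and these correlations describe 15 points without a test.

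**Figure D3:**
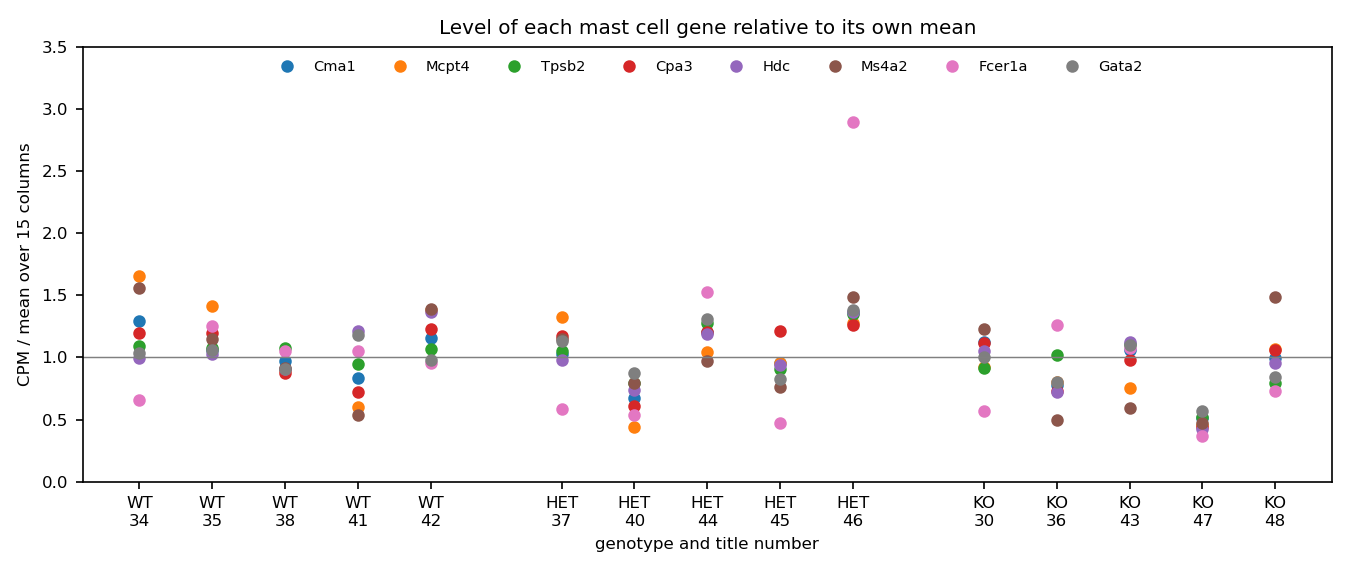
CPM of each mast cell gene divided by its own mean over the 15 columns (y axis, linear), by genotype and title number (x axis); each colour is a gene. The 8 points of KO 47 lie below those of most other columns, and the 8 points of HET 46 lie above the line at 1, with Fcer1a above the rest.

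Libraries of the same title number repeated these levels closely. In 8 of the 9 numbers with 2 libraries, the summed CPM of the 8 genes differed by 1.01 to 1.04 times between the libraries. HET 40, for example, had 1193 and 1208 CPM, and HET 44 had 2165 and 2202 CPM. Number 35 (WT) was the exception with 2591 and 1673 CPM, 1.55 times apart, and its Cpa3 level was 1118 CPM in one library and 556 CPM in the other. The SD of log2(CPM + 1) between title numbers of a genotype was divided by that between libraries of a number. For the sum this ratio was 2.57 with number 35 in the divisor and 17.7 with it left out of the divisor. The SD between numbers, 0.385 for the sum, kept the column WT 35 in both. With number 35 out of the divisor the ratio was 13.6 for Mcpt4, 12.5 for Hdc, 10.1 for Cma1, 9.49 for Tpsb2 and 8.84 for Cpa3. It was lower for the genes of low count, 4.23 for Ms4a2, 2.66 for Gata2 and 2.37 for Fcer1a. Except in number 35, libraries of one number were thus much closer in these genes than the numbers were to one another.

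**Figure D4:**
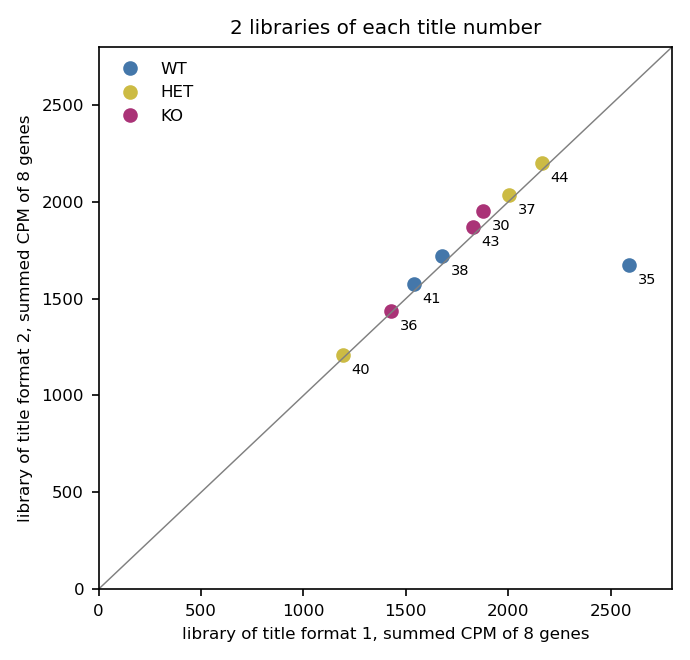
Summed CPM of the 8 mast cell genes in the 2 libraries of each of 9 title numbers, with the library of title format 1 on the x axis and that of format 2 on the y axis; colours are genotypes and the grey line marks equal values. Of the 9 points 8 lie on or beside the line between 1193 and 2202 CPM, and number 35 lies off it at 2591 and 1673 CPM.

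The balance of the neighbouring chymase genes also differed between columns. Mcpt4 was at 31.6% of the Cma1 level in HET 40, 34.9% in KO 43 and 35.2% in WT 41, and at 62.4% in WT 34, 63.0% in HET 37 and 65.0% in WT 35. By genotype it was 53.1 ± 12.6% in WT, 46.3 ± 11.4% in HET and 44.2 ± 7.18% in KO (mean ± SD, n = 5 each), which overlapped. The 2 libraries of a number differed by 0.189 to 2.54 percentage points in this share, apart from number 35, where they differed by 12. Cpa3 kept closer to Cma1, at 161% to 239% of its level in CPM over the 15 columns. Tpsb2 was at 60.7% to 98.7% of Cma1.

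Genes whose pattern was most like that of the 8 were ranked among 15051 genes that averaged at least 20 counts per column, by Pearson r with the mean standardised level of the 8 over the 15 columns. The first 10 were Hs6st2 (r = 0.93), Lat2 (0.92), Ccdc82 (0.92), Pdgfrl (0.91), Dpt (0.91), Slc18a2 (0.90), Pilrb2 (0.89), Tpsg1 (0.88), Flywch2 (0.88) and Armcx6 (0.88). Hs6st2 encodes a heparan sulfate sulfotransferase, Lat2 an adaptor below the IgE receptor, Slc18a2 the vesicular transporter that loads histamine and serotonin into granules, Tpsg1 a membrane-bound tryptase and Dpt a protein of the dermal matrix. Of all genes ranked, 90% lay between -0.58 and 0.65. Spearman rho of the first 10 lay between 0.70 and 0.88. With the columns centred within genotype, 7 of the 10 were again among the first 10. Each of the 8 genes set against the mean of the other members had r from 0.55 for Fcer1a to 0.96 for Cma1.

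The other genes of mast cell lists were counted as background to the 8. Of 59 such genes 53 were tested. KO vs WT, 18 had a higher and 35 a lower mean in KO at a median of -0.13 on the log2 scale, and 0 passed the adjusted p in the edgeR test, where 1.15% of all genes tested did. An unadjusted p below 0.05 was found for 12 of the 53, or 22.6%, close to the 19.3% of all genes. DESeq2 put 6 of them, 11.3%, past the adjusted p, and 8.71% of all genes to which it gave one. HET vs WT, 0 passed in edgeR and in DESeq2 (0.00% and 0.0177% of all genes), with 1 of 53, or 1.89%, at an unadjusted p below 0.05 beside 1.58% of all genes. KO vs HET, 0 passed in edgeR, where 0.333% of all genes did, and 9 of 53, or 17%, had an unadjusted p below 0.05 beside 16.0% of all genes. DESeq2 put 2 of them, 3.77%, past the adjusted p, and 4.84% of all genes. These shares were near those of all genes, and nothing particular to the mast cell lists is read from them.

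Among the other proteases, Ctsc, the activator of granule serine proteases, had a log2 fold change KO vs WT of 0.27 (SE 0.10, adjusted p = 0.161, edgeR), and Tpsg1 had -0.64 (SE 0.28, adjusted p = 0.224). Ctsg, which encodes cathepsin G, had 0.06 and Tpsab1 had -0.45, with SE 0.30 and 0.36. Tpsg1 was at 6.52 ± 1.03 CPM in WT and 4.15 ± 1.84 CPM in KO (n = 5 each), and the ranges overlapped. Of the granule and lipid mediator genes, Cd63, a membrane protein of granules, had -0.31 (SE 0.12), Srgn, the core protein that carries heparin chains, had -0.34 (SE 0.15), and Ptgs1 and Hpgds, enzymes of prostaglandin synthesis, had 0.42 (SE 0.12) and 0.23 (SE 0.11). The list's smallest adjusted p was 0.114 (edgeR), that of Ptgs1. Ptgs1 and Hpgds thus had signs opposite to those of Cd63 and Srgn, and they are expressed by other skin cells as well.

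In the signalling list, Plcg1 had a log2 fold change KO vs WT of 0.16 (SE 0.09), Fyn -0.14 (SE 0.09), Fcer1g, the gamma chain of the IgE receptor, -0.13 (SE 0.09) and Gab2 -0.16 (SE 0.14). Of the surface receptors, Kit, the receptor for stem cell factor on which mast cells depend, was at a CPM of 43.9 ± 2.18 in WT, 46.7 ± 8.97 in HET and 48.03 ± 12.01 in KO (n = 5 each; KO vs WT 0.13, SE 0.15). Il1rl1, the receptor for interleukin-33, had -0.04 (SE 0.25), Mrgprb1 had -0.59 (SE 0.28) and Csf2rb had -0.28 (SE 0.27). Kit, which melanocytes also express, had a mean in KO that was not lower than in WT. Its r with the 8 genes was 0.50 over the 15 columns, beside 0.81 for Il1rl1, 0.73 for Mrgprb1 and 0.00 for Csf2rb. The highest r of this list was that of Mrgprb2 (0.84), the receptor for basic peptides on connective tissue mast cells. Mrgprb2 was named after its value was seen.

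Of the growth factors, Kitl, which encodes stem cell factor, was at a CPM of 199 ± 16.8 in WT, 191 ± 11.5 in HET and 170.3 ± 28.8 in KO (n = 5 each), with a log2 fold change KO vs WT of -0.22 (SE 0.11, adjusted p = 0.267, edgeR). It was lowest in KO 47, at 121.5 CPM, and its r with the 8 genes was 0.81 (Spearman rho 0.50). Il33 had 0.61 (SE 0.23, adjusted p = 0.173, edgeR) and Tgfb1 0.06 (SE 0.10). The cytokine gene Il3 had no count in any column. Of the transcription factors, Zfpm1, a cofactor of GATA proteins, had 0.43 (SE 0.12) and the smallest adjusted p of all these lists, 0.107 (edgeR). Meis1 had -0.33 (SE 0.11), Lmo2 -0.24 (SE 0.12) and Runx1 -0.02 (SE 0.12).

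**Figure D5:**
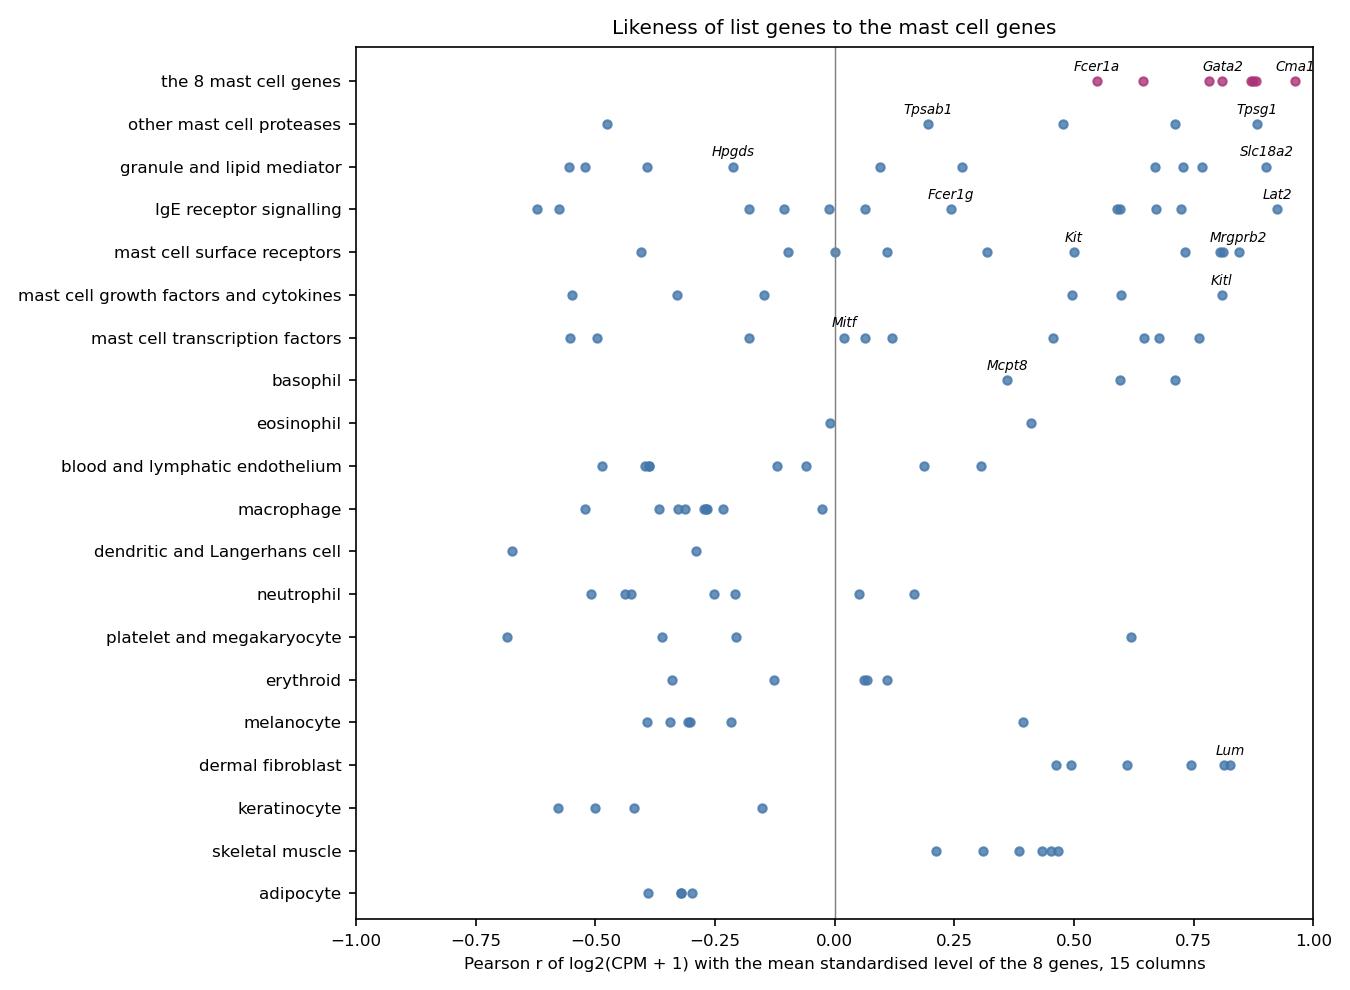
Pearson r (x axis) of log2(CPM + 1) of each listed gene with the mean standardised level of the 8 mast cell genes over 15 columns, 1 row of points per gene list; each of the 8 genes was set against the other 7. The 8 genes lie between 0.55 and 0.96, and the macrophage and keratinocyte genes below 0. Lat2 and Slc18a2, the highest of the other mast cell lists, lie at 0.92 and 0.90. Other genes of those lists lie below 0, among them Plcg1 (-0.58), Zfpm1 (-0.55) and Ptgs1 (-0.52). The dermal fibroblast genes lie between 0.46 and 0.83, so closeness to the 8 genes is not particular to mast cell genes.

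Markers of other cell types moved with some of the columns named above. The 6 dermal fibroblast genes had a summed CPM of 22420 to 36600 in WT, 19890 to 31990 in HET and 14690 to 29510 in KO, lowest in KO 47, and had a Pearson r of 0.67 and a Spearman rho of 0.40 with the 8 genes. KO 47 also had the highest sum of the 4 adipocyte genes, 4816 CPM against 312 to 978 CPM in WT and 526 to 3616 CPM in HET. The sum of the 9 neutrophil genes was highest there as well, 92.9 CPM against 13.3 to 25.5 CPM in WT. Most of it came from S100a8 (32.9 CPM) and S100a9 (43.7 CPM), with Ltf next at 5.60 CPM, genes named after their values were seen. The paper counts S100a8 and S100a9 among antimicrobial response genes of the skin, so this sum does not stand for neutrophils alone. Of the 4 platelet genes only Ppbp was high in KO 47, at 248 CPM against 0.601 to 3.12 CPM in WT, and was named after its value was seen. The other 3 platelet genes summed to 40.8 CPM there, inside the WT range of 38.6 to 68.4 CPM. The 4 keratinocyte genes summed to 65510 to 92270 CPM in KO, against 52720 to 72540 CPM in WT (r = -0.55, rho = -0.68). Their part in the lower mean of the mast cell genes in KO was not tested. The sums of the endothelial, melanocyte and macrophage lists had r of -0.40, -0.30 and -0.30, with rho of -0.30, -0.21 and -0.35. The 4 Y-linked genes and Xist had r of -0.02 and 0.11, with rho of 0.24 and 0.08.

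Basophils share Cpa3, Hdc, Gata2 and the IgE receptor with mast cells and are told from them by the protease Mcpt8. Mcpt8 was the only gene of the basophil list that passed the adjusted p, and it was lower in KO. Among all genes tested 1.15% passed it KO vs WT and 0.333% KO vs HET. Its CPM was 0.631, 0.522, 0.474, 1.16 and 0.957 in WT, 0.586, 0.632, 0.883, 0.911 and 0.861 in HET and 0.331, 0.221, 0.298, 0.3598 and 0.238 in KO, from 5 to 32 counts per column. All 5 KO columns lay below all WT and HET columns, where 3.37% of all genes had ranges apart KO vs WT and 2.25% KO vs HET. The log2 fold change was -1.34 KO vs WT (SE 0.29, adjusted p = 0.0793, edgeR) and -1.39 KO vs HET (SE 0.30, adjusted p = 0.0877, edgeR), and 0.05 HET vs WT (adjusted p = 0.9998). The direction was the same under each of 19 alternatives in both comparisons, but the adjusted p was above 0.1 under 7 of 19 and 9 of 19, and neither value would pass an adjusted p of 0.05. KO vs WT it rose to 0.117 without WT 35 and to 0.150 without KO 47. The largest adjusted p over the alternatives (edgeR or DESeq2) was 0.558 KO vs WT and 0.361 KO vs HET. The basophil list, 3 of 3 genes with counts, had a summed CPM of 11.8 to 20.7 in WT, 16.9 to 21.5 in HET and 8.38 to 17.2 in KO, most of it from Cd200r3, which mast cells also express and which is named after its value was seen. The sum of the basophil list had a Pearson r of 0.815 and a Spearman rho of 0.804 with the 8 genes. Taken singly, r was 0.71 for Cd200r3, 0.60 for Prss34 and 0.36 for Mcpt8. Against the sums of 849.8 to 2398 CPM for the 8 mast cell genes, Mcpt8 was below 1.2 CPM in each column. Of the other lists, the neutrophil receptor Cxcr2 passed, at 0.287 ± 0.120 CPM in WT and 1.46 ± 1.29 CPM in KO (n = 5 each; log2 fold change 2.31, adjusted p = 0.0891, edgeR). Its adjusted p was above 0.1 under 8 of 19 alternatives, among them without KO 47 (adjusted p = 0.180, edgeR). The largest value for Cxcr2 over the alternatives (edgeR or DESeq2) was an adjusted p of 0.566.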

How the data were processed

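Per the labels, RNA of flash-frozen skin was enriched for poly(A) and made into strand-preserving libraries. The authors deposited raw read counts, whole numbers per gene symbol, in 1 column for each of 24 libraries. STAR and HTSeq are named in the submitters' processing notes without versions. These notes name hg19, a human build, for mouse data; the mouse build, annotation and strand setting are not given in the sources used here. Counts of libraries with the same title number and genotype were summed to 15 columns, filtered with filterByExpr (17094 genes kept), scaled by TMM (factors 0.929 to 1.03) and fitted in edgeR 4.0.16 for a quasi-likelihood test (limma 3.58.1, R 4.3.3; robust, all genotypes in one fit). Values are CPM on TMM-scaled library sizes. Standard errors were worked out from fold change and F value. The test was checked on simulated counts. That check used the same spread for all genes and larger decreases than those of the 8 genes. It therefore does not show how well the test finds differences in them. The floor of 3 counts for a count of 0 covers counting error only. Alternatives were each title format alone, separate libraries, number 35 apart, DESeq2 1.42.0, RLE factors, no filter, the 2 genotypes only, an adjusted p of 0.05 and leaving out each number. The genes and lists were chosen with earlier results of these data known. Named besides the 8 genes are the 4 of highest mean CPM in each mast cell list and any past the adjusted p, genes of other cell lists past it KO vs WT, and the 10 of most similar pattern; 1 gene that this rule picks is not reported here.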

Additional observations from a re-analysis of the deposited data

Results flagged for a closer look

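In 2 of the 33 groups of 5 columns examined, 1 column stood far from the rest; chance alone gives about 1 in 20, or 1.65 of 33. WT 41 had 258 CPM of Tpsb2, while the other WT columns had 292 to 297 CPM, a gap of 0.868 of the range of the group. This gap rested on the sum of the 2 libraries of WT 35, which had 321 and 271 CPM: with them kept apart it was 0.196 of the range. HET 40 had 409 CPM of Cpa3, while the other HET columns had 791 to 849 CPM, a gap of 0.870 of the range. Both columns had 2 libraries, which differed by 1.02 times in Tpsb2 (WT 41) and 1.03 times in Cpa3 (HET 40).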

How the results depend on the processing

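None of the 8 genes was called in any of 20 settings of the 3 comparisons, while 3 to 240 genes in all were called KO vs WT, 3 to 179 KO vs HET and 0 to 1 HET vs WT. KO vs WT, 151 of 152 log2 fold changes under an alternative kept their direction and side of the threshold, KO vs HET 149 of 152 and HET vs WT 136 of 152, and the smallest adjusted p was 0.160, 0.151 and 0.939 (edgeR). With title format 1 alone, 3 numbers per genotype, the log2 fold change reversed to 0.0414 for Fcer1a KO vs WT, 0.00317 for Cma1 and 0.00490 for Fcer1a KO vs HET, and -0.0157 for Tpsb2, -0.13 for Cpa3 and 0.14 for Ms4a2 HET vs WT; with format 2 alone it reversed to 0.00697 for Cma1 HET vs WT. The median of the 8 genes was then -0.17 KO vs WT and -0.09 KO vs HET (format 1). The cause was not tested. Leaving out 1 number at a time, the HET vs WT values ran from -0.14 to 0.10 for Cma1, -0.0628 to 0.13 for Tpsb2, -0.0367 to 0.22 for Cpa3, -0.20 to 0.0174 for Hdc, -0.28 to 0.0525 for Ms4a2 and -0.34 to 0.45 for Fcer1a, and Fcer1a KO vs HET ran from -0.80 to 0.0331. The other mast list genes past the adjusted p numbered 0 to 17 KO vs WT and 0 to 11 KO vs HET, highest with 24 separate libraries, where they were 32.7% and 21.2% of the list beside 23.7% and 24.6% of all genes. That setting counts the 2 libraries of a title number as independent samples, so it overstates the number of samples. It also gave the smallest adjusted p of 0.151 KO vs HET and of 0.939 HET vs WT (edgeR).

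Number 35 was left out of the SD between libraries, an alternative chosen after seeing the data, while the SD between numbers kept the column WT 35. The ratio of the SD between numbers to that between libraries then moved from 4.03 to 10.1 for Cma1, 3.70 to 13.6 for Mcpt4, 4.77 to 9.49 for Tpsb2, 1.88 to 8.84 for Cpa3, 4.0 to 12.5 for Hdc and 2.57 to 17.7 for the sum. No paired analysis was possible because no title number occurs in more than 1 genotype. Fcer1a and Mcpt8, with 8 to 67 and 5 to 32 counts per column, are limited by depth.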
